A study of Ovis aries with 2 samples.

Results

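The 42 genes described here encode receptors for GABA and glutamate, and they were taken from the 23141 genes in the feature table by symbol. The rule kept symbols that begin with GABR, GABBR, GRIA, GRID, GRIK, GRIN or GRM and go on with a number or with a letter and a number. It gave 16 GABA receptor genes and 26 glutamate receptor genes. Subunit genes with a single closing letter, such as GABRD and GABRE, lie outside it. Single-cell expression was measured in the anterior lobe of the pituitary of Hu sheep, a breed studied here around puberty. The glands came from animals aged 3 months in one group and 6 months in the other, with 1 library per age and no other treatment or genotype named. How many animals were used, and of which sex, is not given in the sources used here. Age and library therefore cannot be told apart, no test was possible, and the comparisons below are between 2 libraries. The 95% intervals cover counting error only.

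GABA and glutamate are transmitters best known from the brain, and endocrine cells of the anterior pituitary also carry receptors for both. GABA-A receptors are chloride channels built mostly from alpha, beta and gamma subunits, while GABA-B receptors are G-protein-coupled pairs. Among glutamate receptors, AMPA, kainate and NMDA receptors are cation channels made of several subunits, delta receptors are relatives of these that bind synaptic organisers, and metabotropic receptors signal through G proteins. In the pituitary, GABA and glutamate are known to act on hormone release, with effects that depend on the cell type.

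The libraries held 142479651 UMIs (unique molecular identifiers, each a counted transcript) at 3 months and 175239612 at 6 months, and 15448 and 12633 cells after filtering. They shared 81 barcode sequences. Cells were clustered without hormone or receptor genes, and clusters were named from marker lists. Hormone-producing classes with both libraries were lactotroph-like cells, the prolactin source (2290 cells at 3 months and 4861 at 6 months), somatotroph-like cells, the growth hormone source (1213 and 497), and gonadotroph-like cells, which secrete LH and FSH (1059 and 256). Corticotroph-like cells, which make ACTH, numbered 219 and 7, so their levels are given at 3 months only. No cluster was named thyrotroph. In 16 of the 32 clusters, 1 library supplied at least 90% of the cells. Free RNA differed too: hormone transcripts made up 3.15% of UMIs in endothelial-like and immune cells at 3 months and 9.70% at 6 months.

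Receptor transcripts were sparse and concentrated in a few genes. A UMI was found for 40 of the 42 genes, and GABRA6, an alpha subunit, and GABRR3, a rho subunit, had none. In at least 1 hormone-producing class, 15 genes reached 100 UMIs summed over both libraries, and 12 of these are described below: GABRA3, GABRG1, GABBR1, GRIA2, GRIA3, GRIK2, GRIK4, GRIK5, GRIN1, GRIN2D, GRM7 and GRM8. The other 27 genes of the rule stayed below that count. Levels are given as CPM, a gene's UMIs in a class scaled to a common total. Counts were not divided by transcript length, so a level is compared across classes for 1 gene and never between genes. Endothelial-like and immune cells, which give a level that free RNA can bring, are set beside the hormone-producing classes where a result turns on it.

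**Figure D1:**
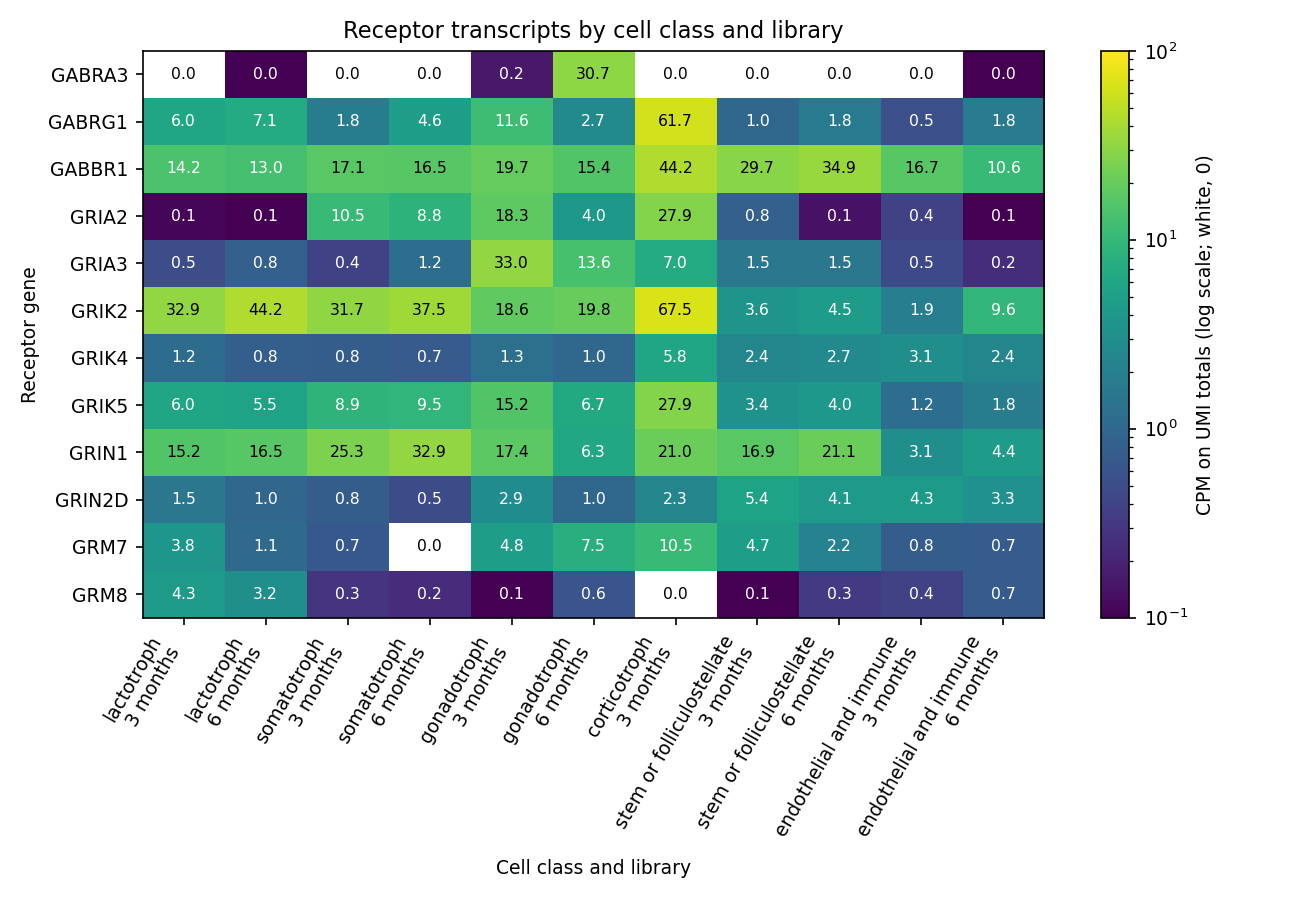
CPM (on UMI totals, with a log colour scale) of 12 receptor genes with at least 100 summed UMIs, one column per cell class and library; white cells hold 0 UMIs and a dark 0.0 is a value that rounds to 0. GRIA3 stands out in the gonadotroph-like columns, and GRIK2 is present in all hormone-producing columns.

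GABRG1, a gamma subunit of GABA-A receptors, was highest at 3 months in corticotroph-like cells, at 61.7 CPM. It was at 6.03 and 7.07 CPM (3 and 6 months) in lactotroph-like cells and at 11.6 and 2.71 CPM in gonadotroph-like cells. In somatotroph-like cells it was at 1.82 and 4.62 CPM, and in endothelial-like and immune cells at 0.537 and 1.79 CPM. The corticotroph-like cells also held 15 UMIs of the alpha subunit gene GABRA2 and 18 UMIs of the beta subunit gene GABRB1 (21.0 CPM). These cells were shallow, with a median of 2679 UMIs, and POMC made up 5.80% of their UMIs.

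GABBR1, a GABA-B subunit that binds GABA, was found in hormone-producing and other cells alike. It was at 14.2 and 13.0 CPM in lactotroph-like cells, 17.1 and 16.5 CPM in somatotroph-like cells and 19.7 and 15.4 CPM in gonadotroph-like cells. Endothelial-like and immune cells had 16.7 and 10.6 CPM. Corticotroph-like cells had 44.2 CPM at 3 months, 2.65-fold (95% interval 1.82 to 3.75) over those. Stem or folliculostellate-like cells had 29.7 and 34.9 CPM. Without hormone genes in the total, lactotroph-like cells were at 32.2 and 27.3 CPM, so their place in the order depends on the scale. GABBR2, the partner subunit that couples to G proteins, stayed under 100 UMIs in every hormone-producing class, with 73 and 12 UMIs in gonadotroph-like cells (5.87 and 2.50 CPM). Among hormone-producing, stem or folliculostellate-like, endothelial-like and macrophage-like cells, GABBR2 was highest in stem or folliculostellate-like cells, at 10.7 and 19.9 CPM. Both subunits were thus present there. Other named classes and unnamed clusters were not ranked for it.

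AMPA receptor genes were found mainly in gonadotroph-like, somatotroph-like and corticotroph-like cells. GRIA3 was at 33.0 CPM at 3 months and 13.6 CPM at 6 months in gonadotroph-like cells, against 0.460 and 0.249 CPM in endothelial-like and immune cells, a 71.7-fold (95% interval 32.7 to 197) and 54.4-fold (22.2 to 173) excess. GRIA2, the subunit whose edited form keeps calcium out of the channel, was at 18.3 and 3.96 CPM in gonadotroph-like cells. Somatotroph-like cells had 10.5 and 8.76 CPM of it, and corticotroph-like cells 27.9 CPM at 3 months. Lactotroph-like cells had 0.111 and 0.0946 CPM, from 5 UMIs in 2290 cells and 9 UMIs in 4861 cells. GRIA1, another AMPA subunit, stayed under 100 UMIs in hormone-producing cells and had 109 and 134 UMIs in stem or folliculostellate-like cells.

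Of the kainate receptor genes, GRIK2 was found in all hormone-producing classes. Its level was 32.9 and 44.2 CPM in lactotroph-like cells, 31.7 and 37.5 CPM in somatotroph-like cells and 18.6 and 19.8 CPM in gonadotroph-like cells. Corticotroph-like cells had 67.5 CPM at 3 months. PRL alone made up 55.7% and 52.3% of UMIs in lactotroph-like cells, which lowers the CPM of other genes there. Endothelial-like and immune cells had 1.92 and 9.57 CPM, so the excess over that background was smaller at 6 months, 4.62-fold in lactotroph-like cells against 17.1-fold at 3 months. With each cell thinned to 2000 UMIs, a GRIK2 UMI was found in 7.15% of lactotroph-like cells at 3 months (95% interval 6.12 to 8.30; 2251 of 2290 cells deep enough) and 9.51% at 6 months (8.70 to 10.4; 4826 of 4861), against 43.2% and 52.9% without thinning. The thinned share in endothelial-like and immune cells was 0.186% and 0.729%, so the lactotroph-like shares stood above that background in both libraries at equal depth. GRIK5, a subunit that joins others such as GRIK2, was at 15.2 and 6.68 CPM in gonadotroph-like cells, 8.92 and 9.49 CPM in somatotroph-like cells and 5.96 and 5.54 CPM in lactotroph-like cells. Corticotroph-like cells had 27.9 CPM of GRIK5 at 3 months, from 24 UMIs. GRIK4, a similar partner subunit, was lower in lactotroph-like cells (1.15 and 0.819 CPM) than in endothelial-like and immune cells, at 0.367-fold and 0.343-fold of their level.

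The obligatory NMDA subunit gene GRIN1 was highest in somatotroph-like cells among the hormone-producing classes with both libraries. It was at 25.3 and 32.9 CPM there, 8.06-fold (5.78 to 11.5) and 7.41-fold (5.63 to 9.79) over endothelial-like and immune cells. The unnamed cluster led by ASIC4 and PCLO had 32.3 and 26.6 CPM of GRIN1, from 64 and 101 UMIs, more than somatotroph-like cells at 3 months and less at 6 months. Lactotroph-like cells had 15.2 and 16.5 CPM, and gonadotroph-like cells 17.4 and 6.26 CPM. Without hormone genes in the total, somatotroph-like cells were at 39.1 and 49.4 CPM and lactotroph-like cells at 34.4 and 34.6 CPM, a 1.13-fold (0.981 to 1.31) difference at 3 months, within counting error, and a 1.43-fold (1.19 to 1.70) one at 6 months. Its partner subunits were scarce. GRIN2D had 162 UMIs in lactotroph-like cells over both libraries, at 0.356-fold and 0.297-fold of its level in endothelial-like and immune cells. The most found for GRIN2A, GRIN2B, GRIN2C, GRIN3A and GRIN3B in any hormone-producing class were 1, 73, 47, 50 and 9 UMIs. The listed GRIN2B may be a partial count, since a second gene in the table carries a placeholder symbol that the reference now calls GRIN2B.

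GRM8 encodes a metabotropic receptor that lowers cyclic AMP. Among hormone-producing, stem or folliculostellate-like, endothelial-like and macrophage-like cells, it was highest in lactotroph-like cells, at 4.28 and 3.15 CPM. Other named classes were not ranked. The unnamed cluster led by ASIC4 and PCLO had more, 9.60 and 5.26 CPM from 19 and 20 UMIs. The next of the ranked classes in each library, macrophage-like cells, was 8.77-fold (2.95 to 42.9) and 3.32-fold (1.83 to 6.71) lower than lactotroph-like cells. GRM7, a receptor of the same group, was at 3.79 and 1.08 CPM in lactotroph-like cells and 4.83 and 7.51 CPM in gonadotroph-like cells.

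Counted against the same background in both libraries, at least 5-fold excess was found for GRIA2, GRIK5 and GRIN1 in somatotroph-like cells, 3 of 7 measured receptor genes beside 6.07% of all measured genes. In gonadotroph-like cells it was found for 3 of 10, GRIA2 and GRIA3 among them, beside 4.75%. For lactotroph-like cells no receptor gene of 12 passed, beside 0.827% of all genes. At 3 months alone, GABRG1, GRIK2 and GRM8 were 11.2-fold to 17.1-fold over that background in lactotroph-like cells. At 6 months they were 3.94-fold to 4.62-fold over it, in the library where free hormone RNA was also higher; the part of free RNA in this was not tested.

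Thyrotrophs were examined through TSHB, which encodes the beta chain of thyrotropin, since no cluster was named for them. With a stricter filter on cells 1 cluster was so named, with 32 cells at 3 months and 60 at 6 months. Cells with at least 0.1% of UMIs from it numbered 114 at 3 months and 59 at 6 months, of which 61 and 15 lay in the somatotroph-like cluster and 20 and 36 in an unnamed cluster led by ASIC4 and PCLO, described below. They held 28 and 21 UMIs of GRIK2, 28 and 14 of GRIN1 and 23 and 5 of GRIA2. No receptor gene reached 100 UMIs in them, and no ratio between ages is given.

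The levels at 6 months were next set against those at 3 months within each class, as log2 ratios of CPM on effective library sizes from TMM, which scales libraries on the bulk of their genes. A gene was measured with at least 100 summed UMIs and was counted as apart from a 2-fold difference. In lactotroph-like cells 1 of 12 receptor genes was 2-fold lower, beside 4.38% of all measured genes, and 0 were higher, beside 2.35% (6.73% in either direction). In somatotroph-like cells 0 of 7 were higher, beside 0.496%, and 0 were lower, beside 1.85% (2.34% in either direction). In gonadotroph-like cells 5 of 10 were lower, beside 5.29%, and 1 was higher, beside 3.56% (8.85% in either direction). The medians of the receptor genes were -0.25, 0.03 and -0.997, and those of all measured genes were 0.05, 0.00 and -0.01.

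**Figure D2:**
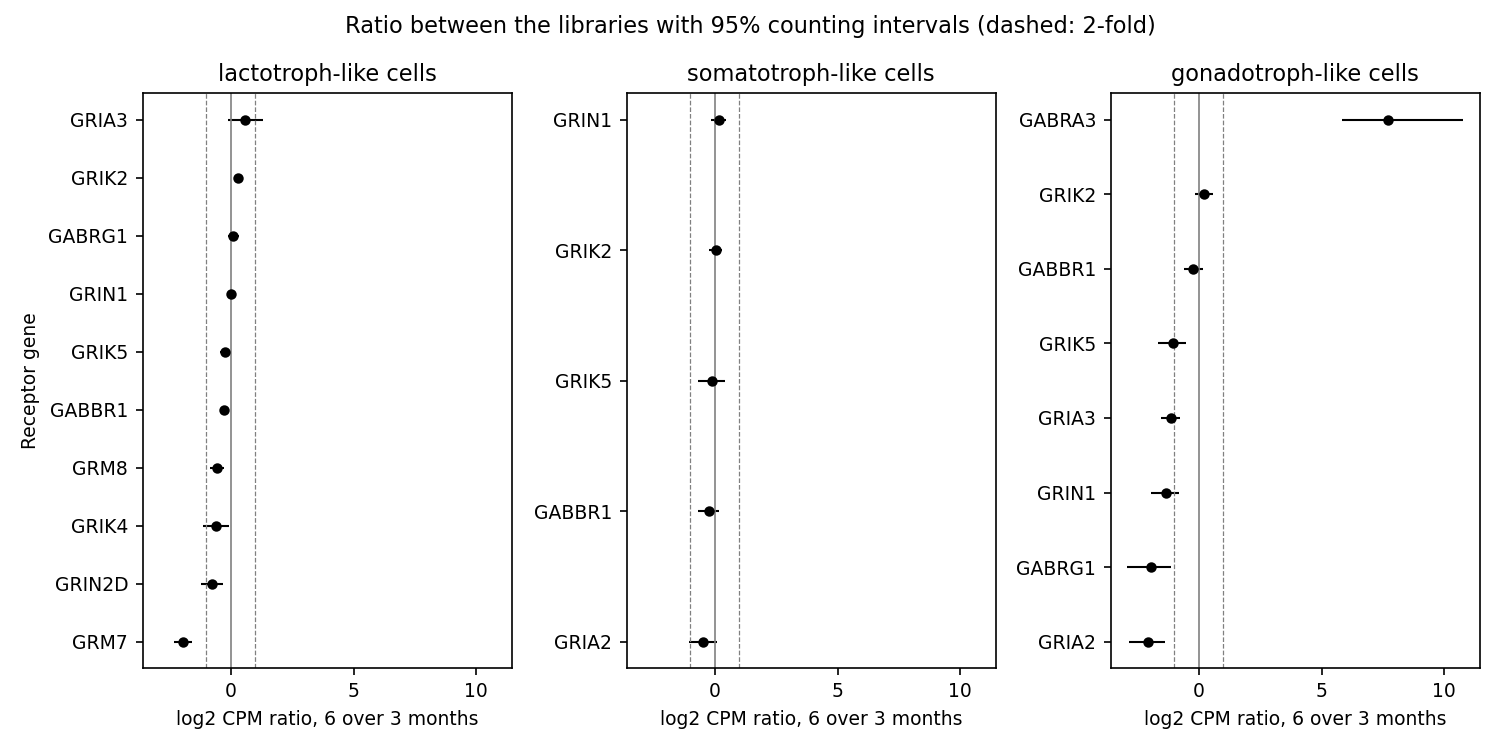
Log2 ratio of CPM (TMM effective library sizes) between the 6-month and the 3-month library for measured receptor genes, out of the 12 described, in 3 classes; points are ratios, bars are 95% counting intervals, and dashed lines mark a 2-fold difference. GRM7 lies beyond the line in lactotroph-like cells, no gene does in somatotroph-like cells, and GRIA2, GABRG1, GRIN1, GRIA3, GRIK5 and GABRA3 do in gonadotroph-like cells.

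In lactotroph-like cells the gene that differed was GRM7. It had 171 UMIs at 3 months and 103 at 6 months, or 3.96 and 1.04 CPM, and its log2 ratio was -1.94 (95% interval -2.30 to -1.57). Most lactotroph-like cells of each library lay in different clusters. At 3 months 1711 of 2290 were in a GAL-led cluster, and at 6 months 1968 and 2806 of 4861 were in a DIO2-led and a PRL-led cluster. On UMI totals, GRM7 within the DIO2-led cluster was at 16.5 CPM at 3 months (30 UMIs) and 1.97 CPM at 6 months (64 UMIs). Within the PRL-led cluster it was at 10.2 and 0.607 CPM, from 16 and 37 UMIs. The direction was therefore the same inside the DIO2-led and PRL-led clusters, with larger ratios than over the class. These ratios rest on 152 and 109 cells at 3 months. In the GAL-led cluster, which held most of the 3-month cells, GRM7 was at 3.09 and 1.37 CPM, from 122 and 2 UMIs. Its log2 ratio there was -1.17 (-4.24 to 0.71), an interval that reaches both directions, so no difference was clear in that cluster. Over the class, on UMI totals, GRM7 was 4.94-fold (2.62 to 10.5) over endothelial-like and immune cells at 3 months and 1.45-fold (0.838 to 2.68) at 6 months, so its level at 6 months was not clear of that background.

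Other receptor genes moved less in lactotroph-like cells. GRIK2 was at 34.4 and 42.3 CPM (log2 ratio 0.30, 0.21 to 0.39). Its level varied between the clusters: it was at 69.3 and 58.8 CPM in the DIO2-led cluster, 43.9 and 36.8 CPM in the PRL-led cluster and 32.5 and 33.6 CPM in the GAL-led one. In none of these 3 clusters was it higher at 6 months beyond its interval. In a smaller GAL-led cluster, with 318 cells at 3 months and 38 at 6 months, it was at 2.66 and 16.4 CPM from 6 UMIs in each library (log2 ratio 2.62, 0.71 to 4.52). GABRG1, at 6.30 and 6.76 CPM over the class, was at 24.2 and 9.37 CPM in the DIO2-led cluster, a log2 ratio of -1.37 (-1.83 to -0.88). GRM8 (log2 ratio -0.57), GRIN2D (-0.77) and GRIK4 (-0.62) were lower by less than 2-fold with intervals below 0. GRIN1 had a ratio of -0.01 (-0.15 to 0.12).

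**Figure D3:**
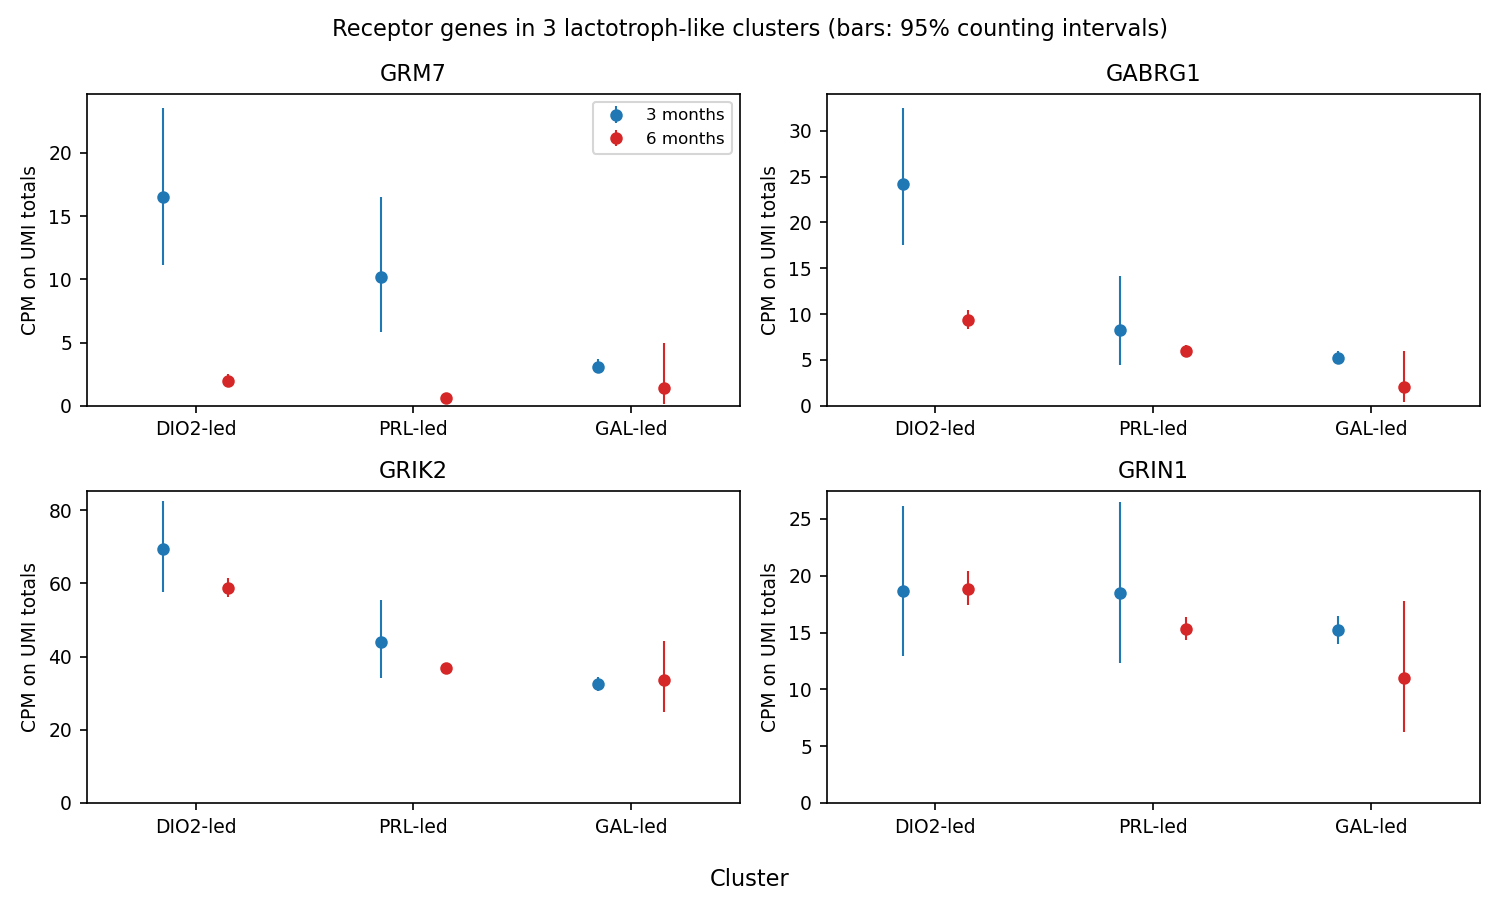
CPM on UMI totals of 4 receptor genes in the DIO2-led, the PRL-led and the larger GAL-led lactotroph-like cluster, with points for the 3-month (blue) and 6-month (red) library and bars for 95% counting intervals. GRM7 is lower at 6 months in the DIO2-led and PRL-led clusters, and GRIK2 is highest in the DIO2-led cluster in both libraries.

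Somatotroph-like cells came from a single cluster in both libraries. GRIA2 was at 11.3 and 8.14 CPM (log2 ratio -0.47, -1.05 to 0.09). GRIK2 was at 34.2 and 34.8 CPM (0.03, -0.26 to 0.31), and GRIN1 at 27.3 and 30.5 CPM (0.16, -0.15 to 0.47). GABBR1 and GRIK5 had intervals that hold 0 as well. These intervals leave room for differences of up to about 2-fold in GRIA2.

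Gonadotroph-like cells held most of the receptor genes that differed, and their make-up differed as well. At 3 months 743 of 1059 cells lay in an FSHB-led cluster and 290 in a shallow LHB-led one. At 6 months 151 of 256 lay in an IGFBP1-led cluster and 74 in the FSHB-led one. The median was 11588 UMIs per cell at 3 months and 18520 at 6 months, and PRL made up 1.84% and 5.86% of their UMIs. The ratios of the receptor genes are therefore given over the class and within the FSHB-led cluster, where 449 of 8671 measured genes (5.18%) were 2-fold apart in either direction and 3 of 9 receptor genes were, all lower.

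GRIA2, with 227 UMIs at 3 months and 19 at 6 months, was at 17.5 and 4.14 CPM, a log2 ratio of -2.08 (-2.83 to -1.40). Within the FSHB-led cluster the ratio was -1.68 (-2.91 to -0.67), from 216 and 8 UMIs. GABRG1 was at 11.1 and 2.84 CPM (144 and 13 UMIs; -1.97, -2.91 to -1.15), and its ratio in the FSHB-led cluster was -1.23 (-2.58 to -0.15). GRIN1 was at 16.6 and 6.54 CPM (216 and 30 UMIs; -1.34, -1.95 to -0.79), and at -1.14 (-2.17 to -0.27) in that cluster. These 3 genes were lower at 6 months over the class and in the FSHB-led cluster, where their counts at 6 months were 11 or fewer. Over the class at 6 months, GRIA2 was 39.8-fold (9.59 to 352) over endothelial-like and immune cells, but GABRG1 was 1.51-fold (0.736 to 2.92) and GRIN1 1.41-fold (0.90 to 2.16) over them, neither clear of that background. Without the IGFBP1-led cluster, 5.14% of all measured genes and 2 of 9 receptor genes, GRIA2 and GABRG1, were 2-fold apart, and GRIN1 was at -0.99, just under 2-fold.

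GRIA3 behaved differently. Over the class it was at 31.5 CPM at 3 months and 14.2 CPM at 6 months (410 and 65 UMIs; log2 ratio -1.15, -1.55 to -0.77). In the FSHB-led cluster alone it was at 33.8 and 34.6 CPM, a ratio of 0.03 (-0.44 to 0.47), and without the IGFBP1-led cluster the ratio was also 0.03. Within the 6-month library, on UMI totals, GRIA3 was at 5.13 CPM in the IGFBP1-led cluster and 35.1 CPM in the FSHB-led one (log2 ratio -2.77, -3.67 to -1.95). The lower level over the class thus rests on the IGFBP1-led cluster. That cluster also held 26 cells of the 3-month library, with a median of 2020 UMIs, in which GRIA3 had 18 UMIs and was at 263 CPM.

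GRIK5 was at 14.5 and 6.98 CPM over the class (-1.06, -1.65 to -0.51) and at -0.55 (-1.45 to 0.24) in the FSHB-led cluster, so it was 2-fold lower over the class but not within that cluster. GRIK2 (0.22, -0.14 to 0.57) and GABBR1 (-0.22, -0.62 to 0.16) had intervals that hold 0, as they did in the FSHB-led cluster (0.06, -0.56 to 0.63, and -0.35, -1.05 to 0.29).

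**Figure D4:**
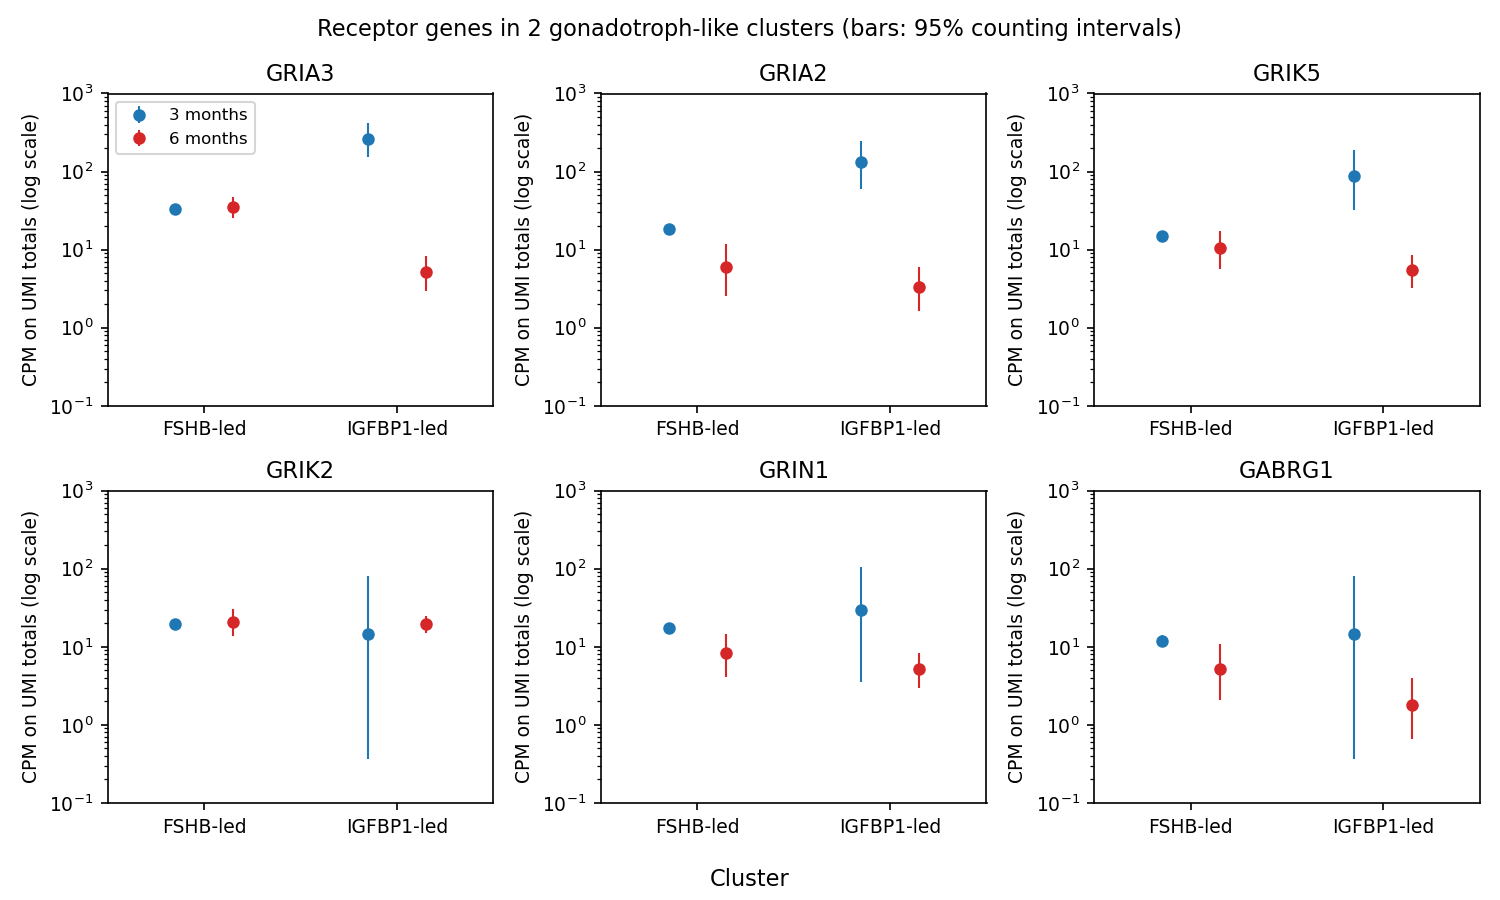
CPM on UMI totals (log scale) of 6 receptor genes in the FSHB-led and the IGFBP1-led gonadotroph-like cluster, with points for the 3-month (blue) and 6-month (red) library and bars for 95% counting intervals; the IGFBP1-led cluster holds 26 cells at 3 months. GRIA3 is level between the libraries in the FSHB-led cluster and low at 6 months in the IGFBP1-led one. GRIA2 is lower at 6 months in both, though in the IGFBP1-led one this rests on 9 and 11 UMIs.

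The gene counted as higher in gonadotroph-like cells, GABRA3, an alpha subunit, came from very few cells. The 3-month library held 2 UMIs of it and the 6-month library 147, which gave a log2 ratio of 7.70 (5.82 to 10.8). At 6 months 8 of 256 cells held a UMI, and 2 of them, with 102 and 37 UMIs, held 94.6% of the total. The FSHB-led cluster held 1 UMI of it at 3 months and 3 at 6 months. The 2 cells with most of it lay in the IGFBP1-led cluster, had 23171 and 24539 UMIs in all, and expressed LHB at 38669 and 27630 CPM, beside 33712 CPM in the other gonadotroph-like cells of that library. Without these 2 cells 8 UMIs remained against 2 at 3 months (log2 ratio 3.52, 1.19 to 6.79), too few to be counted as measured. The value over the class is that of 2 cells, and GABRA3 was otherwise near 0 in every hormone-producing class.

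A pair of unnamed clusters held more of several receptor transcripts than the named classes. The one nearest to lactotrophs, led by ASIC4 and PCLO (382 and 650 cells), had GRIK2 at 131 and 136 CPM and GABBR1 at 52.5 and 37.1 CPM. GRIK2 was among the 10 genes that lead it, so its level there is a description of that cluster. GRM7 was at 24.2 and 8.95 CPM in it, a log2 ratio of -1.44 (-2.12 to -0.77). The one nearest to gonadotrophs, led by SCGN and EGR4 (571 and 97 cells), had GRIA3 at 71.1 and 20.4 CPM (-1.80, -2.60 to -1.10) and GRIA2 at 52.0 and 31.2 CPM (-0.74, -1.38 to -0.15). GRM7 was at 14.1 and 3.60 CPM in it, the latter from 3 UMIs. With such clusters added to their nearest class, GRIK5 no longer passed 2-fold in gonadotroph-like cells, and the other calls stood.

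A list of 82 other genes of GABA and glutamate handling was read the same way. In somatotroph-like cells 0 of 31 measured genes were 2-fold higher, beside 0.496% of all measured genes, and 1 was lower, beside 1.85%. This was CNIH2, which encodes an auxiliary protein of AMPA receptors (37.8 and 18.5 CPM; log2 ratio -1.03). In lactotroph-like cells 0 of 45 were higher, beside 2.35%, and 5 were lower, beside 4.38% (11.1% of the list in either direction, beside 6.73%). The lower genes were the postsynaptic scaffold gene DLGAP1 (-2.52), the GABA-degrading enzyme gene ABAT (-1.92), the vesicular glutamate transporter gene SLC17A6 (-1.66) and CNIH2 (-1.18), with the GABA transporter gene SLC6A11 (-1.15) named in addition after its value was seen. CNIH2 was at 78.6 and 34.7 CPM there, from 3395 and 3449 UMIs. GAD1, GAD2 and SLC32A1, which make GABA and load it into vesicles, reached 100 UMIs in none of the 3 classes.

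In gonadotroph-like cells 3 of 35 such genes were higher, beside 3.56% of all measured genes, and 6 were lower, beside 5.29% (25.7% of the list in either direction, beside 8.85%). Within the FSHB-led cluster 0 of 33 measured genes were higher and 1 was lower, beside 5.18% of all measured genes there in either direction. GSG1L, an auxiliary subunit gene of AMPA receptors, had 517 UMIs at 3 months and 17 at 6 months (39.8 and 3.71 CPM; log2 ratio -3.42, -4.21 to -2.73), and it was the gene that stayed 2-fold lower in the FSHB-led cluster (-2.70, -3.83 to -1.76). SLC6A11 was at 24.0 and 6.54 CPM (-1.87), HOMER2, a scaffold of metabotropic receptors, with 314 and 46 UMIs (-1.27), and the GABA-A auxiliary gene SHISA7 at 17.5 and 7.42 CPM (-1.24). The other 2 lower genes had ratios of -1.17 and -1.14. The higher genes were NETO2, an auxiliary subunit gene of kainate receptors (52 and 53 UMIs; 1.53), PICK1, which binds GRIA2 (26.1 and 72.9 CPM; 1.48), and GABARAPL2 (1.02), best known from autophagy. In the FSHB-led cluster the ratios were smaller, -0.74 for SLC6A11, -0.84 for HOMER2, -0.60 for SHISA7, 0.06 for PICK1 and -0.20 for GABARAPL2. NETO2 had 50 and 2 UMIs there, too few to be counted as measured. GABARAPL2 turned direction between the class and the cluster, and of the measured genes of the list GSG1L alone passed 2-fold there.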

How the data were processed

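Dissociated anterior pituitary cells of 1 library per age were profiled by droplet single-cell RNA-seq. The files deposited by the authors hold unnormalised UMI counts for each gene in each barcode. Per the submitters' processing notes they were made with Cell Ranger 5.0.0, and per the file headers with 5.0.1. Which genome build was used is not given in the sources used here. Gene symbols and barcodes that the authors deposited beside them are other, non-numeric entries. The receptor genes and all lists were chosen with earlier results of these data known.

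Barcodes needed 500 genes and 1000 UMIs to be kept (16368 at 3 months, 13253 at 6 months), and 920 (5.62%) and 620 (4.68%) marked as doublets by Scrublet in scanpy 1.11.5 were removed. Log-normalised counts of 3000 variable genes, without hormone and receptor genes, gave 30 principal components, a graph of 15 neighbours and 32 Leiden clusters at resolution 1.0. A cluster was named from at least 3 markers that were 1.5-fold higher and found in at least 10% of its cells. No tie was allowed, and no other class could have more markers among the 10 leading genes. Hormone-producing classes also needed a marker of their own among these genes, and the first hormone gene there, if any, had to be such a marker. The clusters led by ASIC4 and PCLO and by SCGN and EGR4 had no such marker and stayed unnamed. Shallow clusters without an own leading marker stayed unnamed too. These scoring rules were set after the clusters were seen. Unnamed clusters held 5435 cells at 3 months and 1905 at 6 months.

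UMIs were summed per class and library. Ratios between ages are on TMM effective library sizes (edgeR 4.0.16), which were within 7.67% of UMI totals in the classes compared. Levels across classes and within single clusters are on UMI totals, except that values of the FSHB-led cluster given with a ratio also use TMM. Intervals are 95%, exact Clopper-Pearson for shares and exact conditional binomial for ratios, and treat UMIs as independent, leaving out variation between cells. Receptor genes with at least 100 summed UMIs in a hormone-producing class were described with values. Certain single-gene results are not reported here. They were given in full where 2-fold apart between ages, or at least 5-fold over endothelial-like and immune cells in both libraries, and at most 4 pathway genes per class and direction were named by fold. Alternatives were the normalization, the weight of cells, the cell filter, doublets, resolution, free RNA, clusters of 1 library, hormone gates, count minimum and thinning depth. A further 4, chosen after seeing the data, were leaving out the IGFBP1-led cluster, the FSHB-led cluster alone, unnamed clusters put in their nearest class, and leaving out the 2 cells per library with most UMIs of a gene.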

Additional observations from a re-analysis of the deposited data

How the results depend on the processing

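With at least 20 summed UMIs in place of 100, the receptor genes 2-fold higher and lower numbered 3 and 1 in somatotroph-like cells, and 1 and 3 in lactotroph-like cells, and 3 were higher in gonadotroph-like cells. With at least 1 UMI they numbered 11 and 1 in somatotroph-like cells and 1 and 8 in lactotroph-like cells. In gonadotroph-like cells 12 were then higher, and at both minimums GABBR2 (-1.10) and GRIN2D (-1.34) joined the lower ones. The share of all genes is not given at these minimums, so these counts cannot be set beside it. Genes added this way had few UMIs, such as GRIA1 with 1 and 15 in somatotroph-like cells. By means of per-cell CPM 1 gene was higher in somatotroph-like cells and 1 in lactotroph-like cells, and with free RNA subtracted 2 were lower in lactotroph-like cells. For neither of these settings is the share of all genes given, so these counts cannot be set beside it. Without clusters of 1 library, 0 genes were lower in lactotroph-like cells, where 0 were measured. In gonadotroph-like cells 2 were then higher and 0 lower of 2 measured, since only the IGFBP1-led cluster remained. Its 3-month part was 26 cells with a median of 2020 UMIs, so these calls depend on how that part is scaled. On UMI totals GABRA3 in that cluster, with 0 and 144 UMIs, had a bound of -0.01 and was not 2-fold higher. The share of all genes is not given for this setting. In gonadotroph-like cells 0 were higher and 2 lower without that cluster, 0 higher and 3 lower in the FSHB-led cluster alone, and 0 higher without the 2 cells per library with most UMIs of a gene. For the last of these settings the share of all genes is not given. GRIA3 was level between the libraries without the IGFBP1-led cluster (0.025) and in the FSHB-led cluster alone (0.032), with intervals that hold 0. Over the alternatives that gave a value, GRM7 in lactotroph-like cells ranged from -2.48 to -1.79 (11 of 11 at least 2-fold lower), GRIA2 in gonadotroph-like cells from -4.01 to -1.62 (15 of 15) and GABRG1 from -3.00 to -1.23 (15 of 15). GRIN1 passed 2-fold in 14 of 15, GRIA3 in 13 of 15 and GRIK5 in 11 of 15. The tallies for gonadotroph-like cells include the setting without clusters of 1 library, where none of these genes was measured. GRIA2 had 9 and 11 UMIs there and GABRG1 1 and 6, and the -4.01 of GRIA2 comes from it. No paired analysis was possible because each age has 1 library. Depth limits genes with under 100 UMIs, and corticotroph-like cells at 6 months (7 cells) allow no comparison. The hormone gates for thyrotrophs and corticotrophs gave no measured receptor gene.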

Other observations

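A few receptor subunit genes outside the symbol rule were also found in hormone-producing cells. GABRD, the delta subunit of GABA-A receptors, had 196 and 137 UMIs in lactotroph-like cells, 4.54 CPM at 3 months and 1.38 CPM at 6 months (log2 ratio -1.72, 95% interval -2.05 to -1.40). GABRE, the epsilon subunit, had 68 and 209 UMIs there, 1.58 and 2.10 CPM (0.42, 0.01 to 0.83). GRINA, which despite its symbol is no NMDA receptor subunit, was at 22.3 and 16.5 CPM (-0.44, -0.55 to -0.32). Outside the hormone-producing classes, GABBR2 was at 10.7 and 19.9 CPM in stem or folliculostellate-like cells (0.89, 0.62 to 1.16) and GRM7 was at 4.67 and 2.15 CPM (-1.12, -1.69 to -0.56). In macrophage-like cells GRIK2 was at 2.64 and 11.8 CPM (2.16, 1.41 to 3.00), while PRL made up 3.17% and 11.2% of their UMIs; the part of free RNA in this was not tested.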
